A study of Mus musculus with 7 samples.

Results

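The 9 genes described here were grouped as Zic and dorsal neural tube genes, although Pax6 and Hes5 are not particular to the dorsal tube. They were picked by name among the 19144 gene symbols of a deposited expression table, with earlier results of these data known. They are the zinc finger genes Zic1, Zic2, Zic4 and Zic5, the basic helix-loop-helix genes Olig3 and Hes5, and the homeobox genes Pax6, Msx3 and Lmx1a. RNA was sequenced from mouse embryos at mid-gestation (E10.5), using cells of pharyngeal arches 3 to 6 that were sorted for green fluorescent protein (GFP). The 4 wild-type libraries, numbered 1 to 4, came from embryos labelled Wnt1-cre2; Chd7 +/+; mTmG. The 3 Chd7 deletion libraries, numbered 1, 3 and 4, came from embryos labelled Wnt1-cre2; Chd7 loxp/loxp; mTmG. Both groups thus carried the Cre transgene and the mTmG reporter, which switches to GFP where Cre has acted. The stated cross used mothers with loxp on both Chd7 copies and would not give Chd7 +/+ embryos, so the control genotype was taken as labelled. Chd7 encodes a chromatin remodeller.

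The neural tube is divided from dorsal to ventral into domains of progenitor cells, each marked by its own transcription factors. Bone morphogenetic protein and Wnt signals from the roof plate, the dorsal midline, pattern the dorsal domains, and Notch signalling holds cells in the progenitor state. The neural crest leaves the tube at its dorsal edge. Wnt1 is expressed in the dorsal neural tube, so a Wnt1-driven Cre marks cells there as well as the crest that leaves it. Zic genes are active in the dorsal tube and the early crest, and Olig3 and Msx3 in dorsal progenitors. Pax6 marks intermediate and ventral progenitors, Lmx1a specifies the roof plate, and Hes5 is a target of Notch.

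The Zic genes lie in pairs with their starts facing. In GENCODE M21 on GRCm38 (mm10), Zic1 lies on chromosome 9 from 91358058 to 91365810 on the minus strand, and Zic4 on chromosome 9 from 91362413 to 91389348 on the plus strand. Zic1 and Zic4 overlap over 3398 bases, and Zic4 also overlaps the predicted gene Gm37477. Zic5 lies on chromosome 14 from 122456795 to 122465677 on the minus strand, and Zic2 on chromosome 14 from 122475435 to 122479852 on the plus strand. Zic5 and Zic2 do not overlap, and their starts are 9758 bases apart. Hes5 (chromosome 4, 154960923 to 154962371, plus strand) overlaps Gm20421, and Pax6 (chromosome 2, 105668900 to 105697364, plus strand) overlaps Pax6os1. The library kit keeps the strand, but whether the counting used it is not given in the sources used here, so reads in these overlaps cannot be told apart. Olig3 (chromosome 10, 19356533 to 19358604, plus strand), Msx3 (chromosome 7, 140046157 to 140049089, minus strand) and Lmx1a (chromosome 1, 167689237 to 167848741, plus strand) overlap no other gene of that annotation.

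The sequences just upstream of Hes5, Zic1, Olig3 and Msx3 are shown because these genes moved together across the libraries. They are RefSeq promoter windows of build GRCm38.p6, written 5′ to 3′ on the strand of the gene, from 250 bases before the start up to the first annotated exon. Capitals mark the E-box CANNTG, which basic helix-loop-helix proteins bind, and the core TGGGAA, read on either strand, of the site of RBPJ, the DNA-binding partner of Notch.
Hes5: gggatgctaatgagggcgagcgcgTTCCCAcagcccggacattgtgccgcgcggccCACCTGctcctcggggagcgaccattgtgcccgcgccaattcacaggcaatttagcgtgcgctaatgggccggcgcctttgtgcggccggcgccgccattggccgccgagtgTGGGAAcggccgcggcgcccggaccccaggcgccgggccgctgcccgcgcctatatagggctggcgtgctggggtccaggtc
Zic1: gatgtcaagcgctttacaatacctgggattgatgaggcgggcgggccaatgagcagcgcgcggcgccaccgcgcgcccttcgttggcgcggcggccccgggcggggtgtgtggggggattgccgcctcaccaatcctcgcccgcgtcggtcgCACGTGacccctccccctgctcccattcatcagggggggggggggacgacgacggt
Olig3: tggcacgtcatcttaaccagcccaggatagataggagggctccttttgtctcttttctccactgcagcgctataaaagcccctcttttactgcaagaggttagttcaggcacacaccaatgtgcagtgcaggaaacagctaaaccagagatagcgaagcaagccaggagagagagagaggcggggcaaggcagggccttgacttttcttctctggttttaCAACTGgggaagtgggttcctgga
Msx3: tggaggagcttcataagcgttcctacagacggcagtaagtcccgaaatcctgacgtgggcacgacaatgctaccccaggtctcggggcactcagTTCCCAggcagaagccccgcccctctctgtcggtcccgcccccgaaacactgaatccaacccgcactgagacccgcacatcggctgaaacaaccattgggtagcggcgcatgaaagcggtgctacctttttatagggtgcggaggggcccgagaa
The Hes5 sequence is chr4:154960673-154960922 on the plus strand, and that of Zic1 is chr9:91365811-91366018 on the minus strand. The Olig3 sequence is chr10:19356289-19356532 on the plus strand, and that of Msx3 is chr7:140049090-140049338 on the minus strand.

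The Hes5 window held the RBPJ core at 2 places, 226 and 82 bases before the start and in opposite orientations. Zic2 had no window, and of the 8 genes with one, 3 held that core, namely Hes5, Msx3 and Lmx1a. The 8 genes had 9 windows, since Pax6 has a further one, and 3 of the 9 held that core. Of all 32817 windows of that length, 21.6% held it. An E-box was present in 7 of the 8 genes, with Msx3 the exception. By window, 7 of the 9 held an E-box, against 66.2% of all windows. The Zic1 E-box CACGTG stood 98 bases before the start, that of Olig3 (CAACTG) 30 and that of Hes5 (CACCTG) 194. The N-box CACNAG, which Hes proteins bind, was in windows of Lmx1a, Pax6 and Zic5 and in 36.7% of all windows. The Zic motif GGGTGGTC (0.704% of all windows) and the TCF/LEF motif CTTTGAT (3.21%) were in none of the 8. Every motif was searched on both strands.

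Expression was deposited as FPKM, reads per gene scaled by gene length and library total, so that levels may be compared between genes. Against wild type 1, sequencing depth lay between 0.865 and 1.29, as judged from the value of a single read. Chd7 stood at 14.2 FPKM ± 0.337 (SD, n = 4) in wild type and at 7.71 FPKM ± 0.208 (SD, n = 3) after deletion, 54.3% of wild type. FPKM is given per gene, and the part that Cre removes was not analysed here. The labels do not say what the library numbers stand for, yet numbers 1 and 2 separated from numbers 3 and 4 over many genes. Rn45s, a ribosomal RNA precursor, took 6.56% to 8.68% of all FPKM in numbers 1 and 2 and 4.11% to 5.03% in numbers 3 and 4. Sox10, a defining neural crest marker, was present at 17.6 to 38.1 FPKM in all 7 libraries, while Cdh5 of endothelium stood at 0.248 to 0.560 FPKM and Epcam of epithelium at 0.713 to 1.54 FPKM.

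Averaged over the 7 libraries, Hes5 was the highest of the 9 genes at 29.9 FPKM, followed by Zic1 at 4.77 FPKM, Olig3 at 3.10, Zic2 at 3.07 and Msx3 at 2.35 FPKM. These 5 exceeded the mean of 1 FPKM required for testing across all genes. Zic5 averaged 0.90 FPKM, Pax6 0.712, Zic4 0.359 and Lmx1a 0.149 FPKM, so these 4 are given by their levels. Hes5 exceeded Zic1, Zic1 exceeded Olig3, Msx3 exceeded Zic5, Pax6 exceeded Zic4 and Zic4 exceeded Lmx1a in each of the 7 libraries. The order of Zic2 and Msx3 and that of Zic5 and Pax6 differed between libraries. Olig3 stood above Zic2 in all 4 wild-type libraries and below it in all 3 deletion libraries, a pattern seen in the data and not tested.

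Zic1, which promotes neural and crest identity at the neural plate border, had 7.73, 6.07, 1.78 and 2.25 FPKM in wild type 1 to 4. In Chd7 deletion 1, 3 and 4 it had 6.50, 4.71 and 4.33 FPKM. The high libraries were wild type 1 and 2 and deletion 1, the low ones wild type 3 and 4, and the remaining deletion libraries lay between. Zic2, needed for dorsal midline and neural tube closure, had 4.63, 3.46, 0.995 and 0.932 FPKM in wild type and 5.08, 3.66 and 2.71 FPKM in deletion. As for Zic1, wild type 3 and 4 were the lowest. Unlike for Zic1, deletion 3 exceeded wild type 2.

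Zic4, the partner of Zic1, had 0.547, 0.455, 0.141 and 0.128 FPKM in wild type and 0.564, 0.287 and 0.389 FPKM in deletion. Zic5, the partner of Zic2, had 1.31, 0.926, 0.256 and 0.279 FPKM in wild type and 1.78, 1.06 and 0.682 FPKM in deletion. These low levels rested on few reads, from 15 to 81 for Zic4 and from 19 to 149 for Zic5. The ratio of Zic2 to Zic5 ranged from 2.86 to 3.98 over the 7 libraries, and that of Zic1 to Zic4 from 11.2 to 17.5. Zic1 over Zic2 was 1.67, 1.76, 1.79 and 2.41 in wild type and 1.28, 1.29 and 1.60 in deletion, so that the deletion libraries had the lower ratios without overlap, a comparison made after the values were seen.

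Olig3, which specifies the most dorsal interneuron progenitors, had 5.95, 4.37, 1.04 and 1.42 FPKM in wild type and 4.60, 2.26 and 2.04 FPKM in deletion. Msx3, a homeobox gene of the dorsal tube, had 3.65, 3.47, 0.831 and 0.996 FPKM in wild type and 2.77, 2.07 and 2.64 FPKM in deletion. Both genes were highest in wild type 1 and lowest in wild type 3 and 4. Pax6 had 0.878, 1.05, 0.509 and 0.407 FPKM in wild type and 0.673, 1.00 and 0.463 FPKM in deletion, the narrowest spread of the 9 genes in wild type relative to its mean. Lmx1a had 0.134, 0.223, 0.0192 and 0 FPKM in wild type and 0.264, 0.269 and 0.133 FPKM in deletion. Wild type 3 held 2 reads of Lmx1a and wild type 4 none, where 3 reads would be 0.0315 FPKM, so no fold is given against them.

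Hes5, the most abundant of the 9, had 40.9, 46.4, 17.4 and 9.71 FPKM in wild type and 48.3, 33.2 and 13.7 FPKM in deletion. It was highest in deletion 1 and lowest in wild type 4, and deletion 4 lay below wild type 3. Between 353 and 2385 reads stood behind each Hes5 value, so counting error was small beside these differences. In bulk RNA of sorted cells, fewer cells of a type and less RNA per cell cannot be told apart, and this holds for every level given here.

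**Figure D1:**
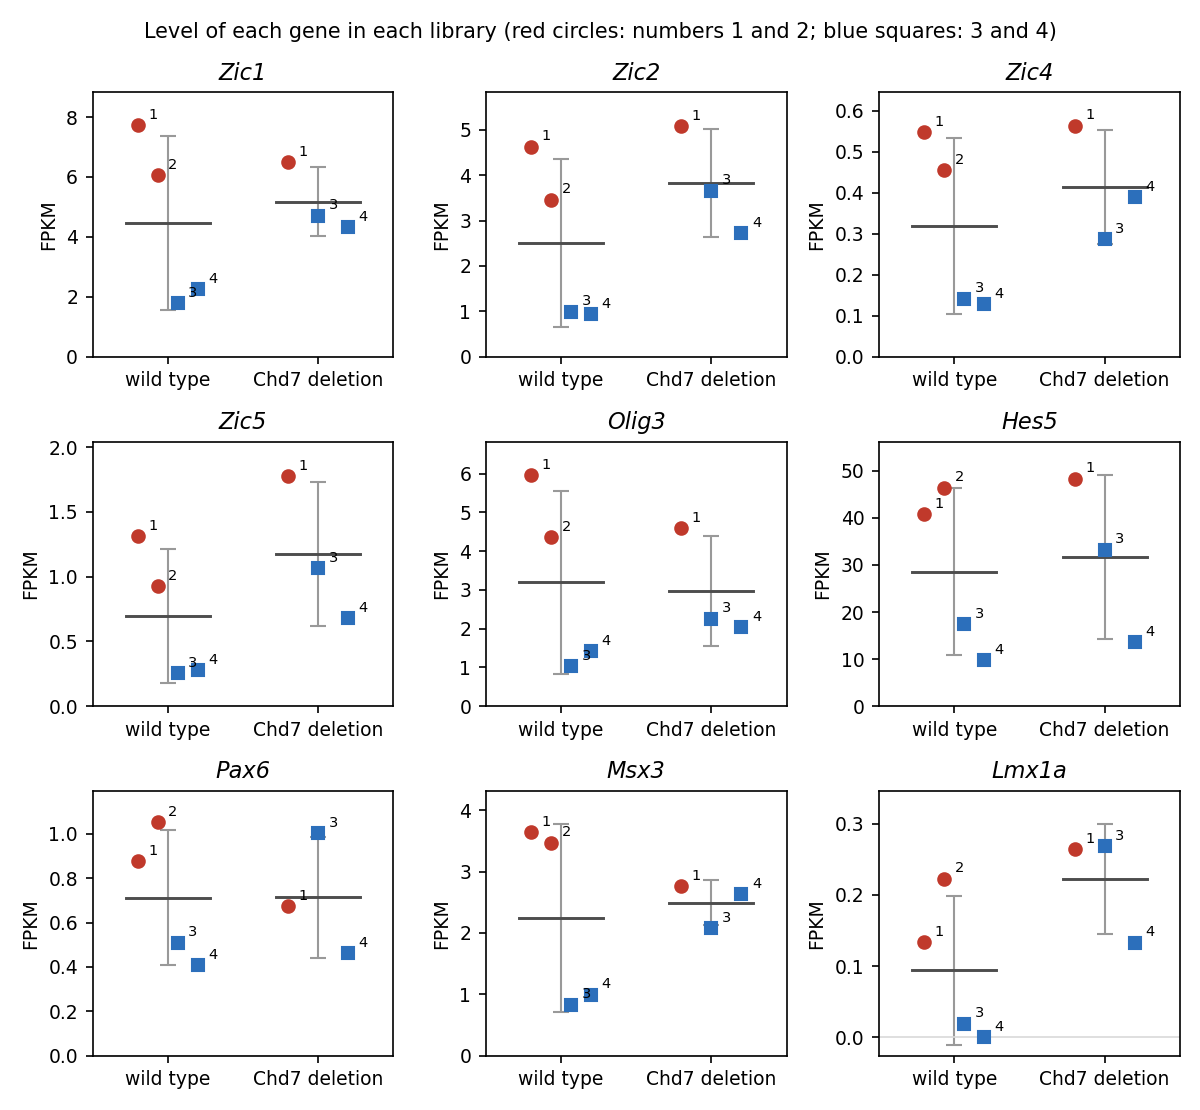
FPKM of each of the 9 genes by genotype (dots for single libraries, lines for means, bars for SD), with red circles for libraries numbered 1 and 2 and blue squares for those numbered 3 and 4. The genotypes overlap for all 9 genes, while wild type 1 and 2 lie above wild type 3 and 4 for every gene.

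The first comparison asked whether these genes differed between libraries numbered 1 and 2 and those numbered 3 and 4. All 5 tested genes were higher in libraries 1 and 2. On the scale of log2(FPKM + 1), with genotype in the model, the difference was 1.46 for Hes5 (SE 0.294, adjusted p = 0.00703), 1.21 for Olig3 (SE 0.148, adjusted p = 0.00200), 1.03 for Zic2 (SE 0.172, adjusted p = 0.00384), 1.01 for Zic1 (SE 0.183, adjusted p = 0.00509) and 0.82 for Msx3 (SE 0.199, adjusted p = 0.0130) by limma. The set of numbers was taken up with earlier results of these data known, so these p-values describe the split. Of the 11039 genes tested, 4.73% were called higher in libraries 1 and 2 and 39.8% lower. The median difference was 1.03 for the 5 genes and -0.14 for all genes.

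Because the median of all genes was displaced, the values were also scaled to a common median. All 5 genes were still higher, by 0.92 to 1.61, and of all genes 14.0% were then higher and 12.8% lower. A mean at least 2-fold higher in libraries 1 and 2 was found for 15 of the 11039 genes, 0.136%, and for 5 of these 5, at ratios of 2.94 for Olig3, 2.44 for Hes5, 2.12 for Zic2, 2.07 for Zic1 and 2.02 for Msx3. Among the genes under the minimum the ratio was 2.35 for Zic5, 2.21 for Zic4 and 1.46 for Pax6. None is given for Lmx1a, since libraries 3 and 4 include wild type 3 with 2 reads and wild type 4 with none. The sets did not overlap for 5 of the 9 genes, Zic1, Zic4, Olig3, Hes5 and Msx3, where 3.71% of tested genes, and 5.63% of genes averaging 0.1 to 1 FPKM, were higher in libraries 1 and 2 without overlap. Without the minimum level, 7 of the 9 were called by limma, including Zic4 (0.33, adjusted p = 0.0118) and Zic5 (0.67, adjusted p = 0.0107), but neither Pax6 (adjusted p = 0.277) nor Lmx1a (adjusted p = 0.0770), against 1.77% of all genes called higher.

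In wild type alone, all 9 genes were higher in both of wild type 1 and 2 than in either of wild type 3 and 4, which held for 12.9% of tested genes and 22.9% of genes averaging 0.1 to 1 FPKM. The ratio of means was 4.20 for Zic2, 4.19 for Zic5 and for Olig3, 3.90 for Msx3, 3.71 for Zic4, 3.42 for Zic1, 3.22 for Hes5 and 2.11 for Pax6. The 5 tested genes differed by 1.25 to 1.67 on the log2 scale (limma, adjusted p = 0.000713 to 0.00330), and 3.3% of genes were called higher. Without the minimum level, 3 of the 9 (Zic1, Zic2 and Msx3) were called in wild type alone, against 0.0643% of all genes, and the other 6 had adjusted p = 0.0530 to 0.0705 by limma. In the deletion libraries, number 1 exceeded the mean of 3 and 4 by a ratio of 2.14 for Olig3, 2.06 for Hes5, 2.04 for Zic5, 1.67 for Zic4, 1.59 for Zic2, 1.44 for Zic1, 1.32 for Lmx1a and 1.17 for Msx3, while Pax6 stood at 0.918. With 1 deletion library numbered 1, that comparison has no replicate check.

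Rn45s moved with the same split, as given above, and its part in the result was not tested. The count of all genes called by library number was 4913, and it was 2021 without Chd7 deletion 1 and 3001 without wild type 4. With any 1 library left out, the 5 genes were called except for Msx3 without wild type 4 (0.74, limma adjusted p = 0.0503).

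The second comparison asked whether deletion of Chd7 altered these genes. Over all 7 libraries none of the 5 tested genes was called, and the ranges of the genotypes overlapped for all 9. The largest difference was that of Zic2, 0.59 on the log2 scale (SE 0.388, limma adjusted p = 0.917), from 2.5 FPKM ± 1.84 (SD, n = 4) to 3.82 FPKM ± 1.19 (SD, n = 3). Zic1 differed by 0.33 (SE 0.387, adjusted p = 0.952), Msx3 by 0.24 (SE 0.340, adjusted p = 0.956), Hes5 by 0.22 (SE 0.572, adjusted p = 0.975) and Olig3 by 0.05 (SE 0.434, adjusted p = 0.989) by limma. None had an unadjusted p under 0.05, and over all genes 98 of 11039 were called, 0.888%, with 815, or 7.38%, at an unadjusted p under 0.05. Each difference was less than 2 of its standard errors, and the absence of a call does not show equal levels. With the replicate number as a block, none of the 5 was called, against 3.32% of all genes. For the genes under the minimum, the exact two-sided permutation test over 35 splits, which cannot go below 0.0286, gave p = 0.143 for Lmx1a, 0.257 for Zic5, 0.486 for Zic4 and 0.971 for Pax6. Leaving out wild type 1, 2, 3 or 4 changed the count of 98 genes to 40, 35, 4 or 53. Leaving out deletion 1, 3 or 4 changed it to 78, 12 or 4.

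**Figure D2:**
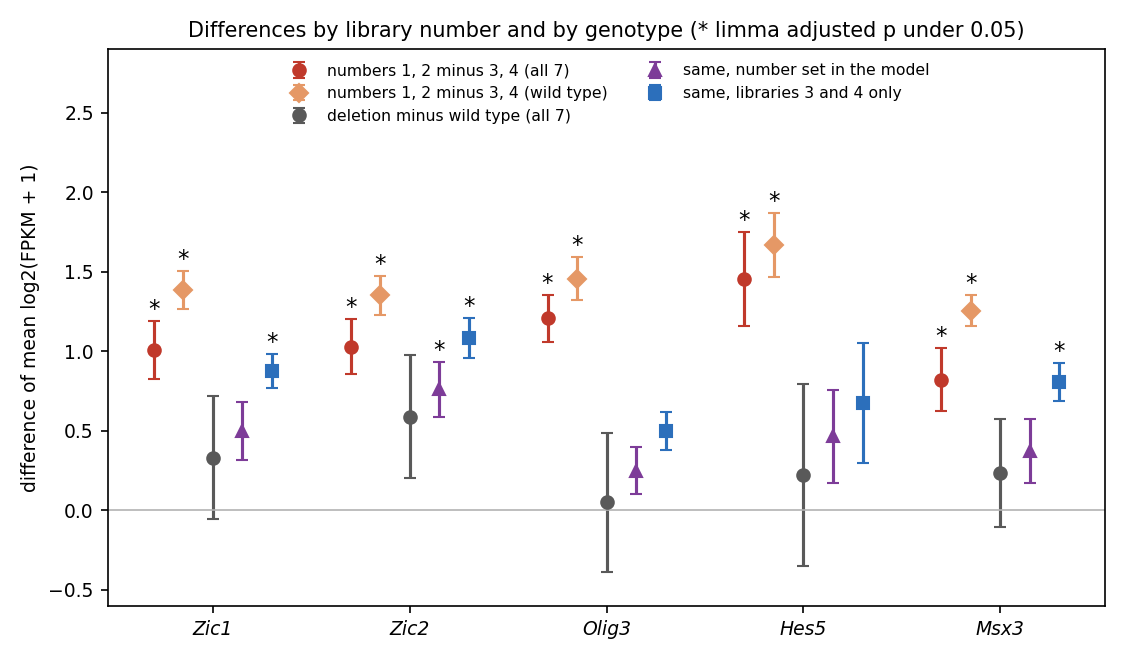
Differences in log2(FPKM + 1) with SE for the 5 tested genes in each comparison by limma, with asterisks at an adjusted p under 0.05. All 5 differ by library number, none by genotype over the 7 libraries, Zic2 by genotype with the set of numbers in the model, and Zic1, Zic2 and Msx3 by genotype within libraries 3 and 4.

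Within the libraries numbered 3 and 4, which hold 2 of each genotype, 3 of the 5 genes were higher after deletion. Zic2 differed by 1.08 (SE 0.127, limma adjusted p = 0.00974), Zic1 by 0.88 (SE 0.106, adjusted p = 0.0113) and Msx3 by 0.81 (SE 0.121, adjusted p = 0.0241). Their ratios of mean FPKM were 3.31, 2.24 and 2.58. Olig3 (0.50, SE 0.119, adjusted p = 0.119) and Hes5 (0.68, SE 0.376, adjusted p = 0.560) were not called by limma, and over all genes 0.48% were called higher and 0.779% lower. Both deletion libraries exceeded both wild-type libraries for 7 of the 9 genes, all but Hes5 and Pax6, which held for 11.6% of tested genes and 23.5% of genes averaging 0.1 to 1 FPKM. Zic4 stood at a ratio of 2.51 and Zic5 at 3.26. The calls rest on 2 libraries a genotype and on the minimum level, since without that minimum 0 of the 9 genes and 0 of 18691 genes were called, with 7 of the 9 at an unadjusted p under 0.05 and a lowest adjusted p of 0.169.

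Deletion 1 showed no single direction against wild type 1 and 2. It exceeded both for Zic2, Zic4, Zic5, Hes5 and Lmx1a, lay below both for Pax6 and Msx3, and lay between them for Zic1 and Olig3, at ratios to their mean from 0.697 for Pax6 to 1.59 for Zic5. With the set of numbers in the model, Zic2 alone was called (0.76, SE 0.172, limma adjusted p = 0.0394), where 1.53% of all genes were called higher and 4.99% lower. Without the minimum level that fit called none of the 9, against 0.7% of all genes. The test of whether the genotype difference itself differed between the sets called none of the 5, with 4 of them at an unadjusted p under 0.05. Its value was 1.08 for Msx3 (SE 0.170, limma adjusted p = 0.111), 0.94 for Zic1 (adjusted p = 0.12), 0.80 for Zic2 (adjusted p = 0.231), 0.63 for Olig3 (adjusted p = 0.382) and 0.53 for Hes5 (adjusted p = 0.988). Over all genes that test called 3 of 11039, 0.0272%, with 9.1% at an unadjusted p under 0.05.

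Other genes of the neural tube were read from lists named by cell type, each tested within the same fits. Of 18 dorsal and intermediate progenitor factors, 10 were tested, and 7 were higher and 1 lower in libraries 1 and 2. Beside Olig3 and Msx3 these were the proneural gene Neurog2 (0.91), Gbx2 (0.75), Pax3 (0.48), Irx5 and Neurog1. The median of the list was 0.48, beside a median of -0.14 for all genes. After scaling to a common median the count was 8 higher and 0 lower. Neurog2 had 4.92, 3.52, 2.03 and 0.928 FPKM in wild type and 3.65, 2.82 and 1.39 FPKM in deletion, so it was lowest in number 4 of each genotype. With genotype alone in the model no gene of that list was called by genotype. With the set of numbers added, 2 of the 10 were higher after deletion, including Pax3 (0.58), and within libraries 3 and 4 Msx3 and Pax3 were higher.

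Pax3, which acts in dorsal progenitors and early crest, had 3.82, 3.29, 1.66 and 1.86 FPKM in wild type and 4.27, 3.64 and 4.18 FPKM in deletion. Its deletion libraries lay close together, wild type 3 and 4 were the lowest, and Pax3 was named after its values were seen.

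Of 20 roof plate genes only 8 could be tested, and 2 were higher and 1 lower in libraries 1 and 2, with a median of 0.03. Draxin (0.43), which encodes an axon guidance protein, was among the higher ones, and the lower one was the ligand Bmp4 (-0.35). Wnt1, whose regulatory sequence drives the Cre, was under the minimum at 0.768, 1.18, 0.298 and 0.281 FPKM in wild type and 1.60, 0.743 and 0.577 FPKM in deletion. Of 7 tested ventral genes 1, Nkx6-1 (0.45), was higher in libraries 1 and 2. With genotype alone in the model no roof plate or ventral gene was called by genotype. With the set of numbers added, 2 roof plate genes were higher after deletion and 2 lower, among them Cdon (0.21) and Msx1 (-0.32), and no ventral gene was called.

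Of 17 tested Notch receptors, ligands and targets, 9 were higher in libraries 1 and 2 and none lower. Beside Hes5 they included the ligand Dll1 (0.72), the feedback inhibitor Nrarp (0.69) and Lfng (0.63), which modifies Notch. Dll1 had 11.4, 12.2, 7.07 and 5.67 FPKM in wild type and 13.2, 10.3 and 6.94 FPKM in deletion, and it ranked the 7 libraries in the same order as Hes5. The list had a median of 0.25, and 14 of its genes were higher after scaling to a common median. With genotype alone in the model none was called by genotype. With the set of numbers added, 2 were higher after deletion, including Notch1 (0.45), and 1 lower, and within libraries 3 and 4 Notch1 was higher.

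Of 16 tested progenitor genes shared by the whole neural tube, 5 were higher in libraries 1 and 2 and 1 lower, with Hes5 followed by Pou3f3 (0.78), Sox21 (0.76) and Pou3f1 (0.61), and Sfrp1 at -0.23. After scaling to a common median, 11 of the 16 were higher and 0 lower. Of 12 neuronal genes 5 were higher and none lower, led by Tubb3 (0.66), Ina (0.65), Dcx (0.59) and Elavl3 (0.58), which encode cytoskeletal and RNA-binding proteins of young neurons, and 9 were higher after scaling. Of 7 tested genes of dorsal interneurons 4 were higher, namely Lhx1 (0.84), Lhx5 (0.76), Pou4f1 (0.68) and Pax2 (0.59). Pou4f1 had 2.42, 2.08, 0.702 and 0.572 FPKM in wild type and 0.899, 0.806 and 0.467 FPKM in deletion. Its ratio of libraries 1 and 2 to 3 and 4 was 3.53 in wild type, and that of deletion 1 to 3 and 4 was 1.41. Pou4f1 is also a gene of sensory neurons, which derive in part from the crest. By genotype, Foxd3 of that list, which is also a crest gene, was higher after deletion (0.58, limma adjusted p = 0.0142), and no progenitor or neuronal gene was called with genotype alone in the model. With the set of numbers added, 2 of the 16 progenitor genes were higher after deletion, including Sfrp1 (0.29), and no neuronal gene was called.

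Lists of other cell types in the arches also held genes that were lower in libraries 1 and 2, where 39.8% of all tested genes were lower, so that the shares of crest, blood and epithelium genes below were no higher than that of all genes. Of 12 arch mesenchyme genes 10 were lower in libraries 1 and 2, with a median of -0.37, among them Dlx5 (-0.52), Pdgfra, Hand1 and Prrx1, and 8 were lower after scaling. Of 12 neural crest genes 4 were lower, among them Snai2 (-0.52), Twist1 (-0.40) and Ets1 (-0.25), with a median of -0.10 that became 0.05 after scaling, where 2 were higher and 1 lower. With genotype alone in the model, 4 crest genes were higher after deletion (Erbb3, Sox10, Sox8 and Foxd3) and none lower. In that fit 6 mesenchyme genes were lower, with Col3a1, Hand2, Barx1 and Six2 the most. Of all tested genes, that fit called 0.408% higher and 0.48% lower after deletion. Twist1 of the crest list, not called there, averaged 22.4 FPKM in wild type and 12.9 FPKM in deletion. With the set of numbers added, 6 crest genes were higher and 2 lower, against 1.53% and 4.99% of all genes. Within libraries 3 and 4, 4 crest genes were higher and 1 lower, against 0.48% and 0.779%. Mesenchyme genes called lower numbered 11 and 10 in these 2 fits. Few genes of endothelium (2 tested, Pecam1 and Egfl7 lower in libraries 1 and 2), blood (5 tested, Hbb-bh1 lower), epithelium (3 tested, Krt18 lower) and muscle (3 tested, Actc1 and Myh7 lower) reached the minimum, and none was called with genotype alone in the model. After scaling to a common median, no blood or epithelium gene and 1 gene each of endothelium and muscle were lower in libraries 1 and 2. By genotype, 1 endothelium gene (Pecam1, -0.32) was lower with the set of numbers in the model, and 1 blood gene was higher within libraries 3 and 4.

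The summed FPKM of a list gives its level in each library. It is not a share of the RNA, since FPKM is scaled by gene length and its total differed between libraries. All FPKM summed to 170809 to 194741 in libraries 1 and 2 and to 190877 to 209560 in libraries 3 and 4. The dorsal progenitor list, which holds 3 of the 9 genes, summed to 34.3 to 40.7 FPKM in libraries 1 and 2 and 16.5 to 31.6 in libraries 3 and 4, without overlap. The neuronal list summed to 544 to 680 FPKM and 340 to 592 FPKM, the mesenchyme list to 104 to 218 FPKM and 135 to 270 FPKM, and the crest list to 152 to 198 FPKM and 161 to 224 FPKM, all with overlap when the genotypes are pooled. Within each genotype the neuronal and mesenchyme sums did not overlap. In wild type that held, in either direction, for 69.0% of single tested genes, and in deletion it rests on 1 library numbered 1. Neuronal sums were 680, 544, 505 and 340 FPKM in wild type and 663, 592 and 362 FPKM in deletion. Mesenchyme sums were 218, 209, 259 and 270 FPKM in wild type and 104, 135 and 143 FPKM in deletion. The crest sums of wild type overlapped. The part of neuronal and progenitor cells in the differences of the 9 genes was not tested.

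**Figure D3:**
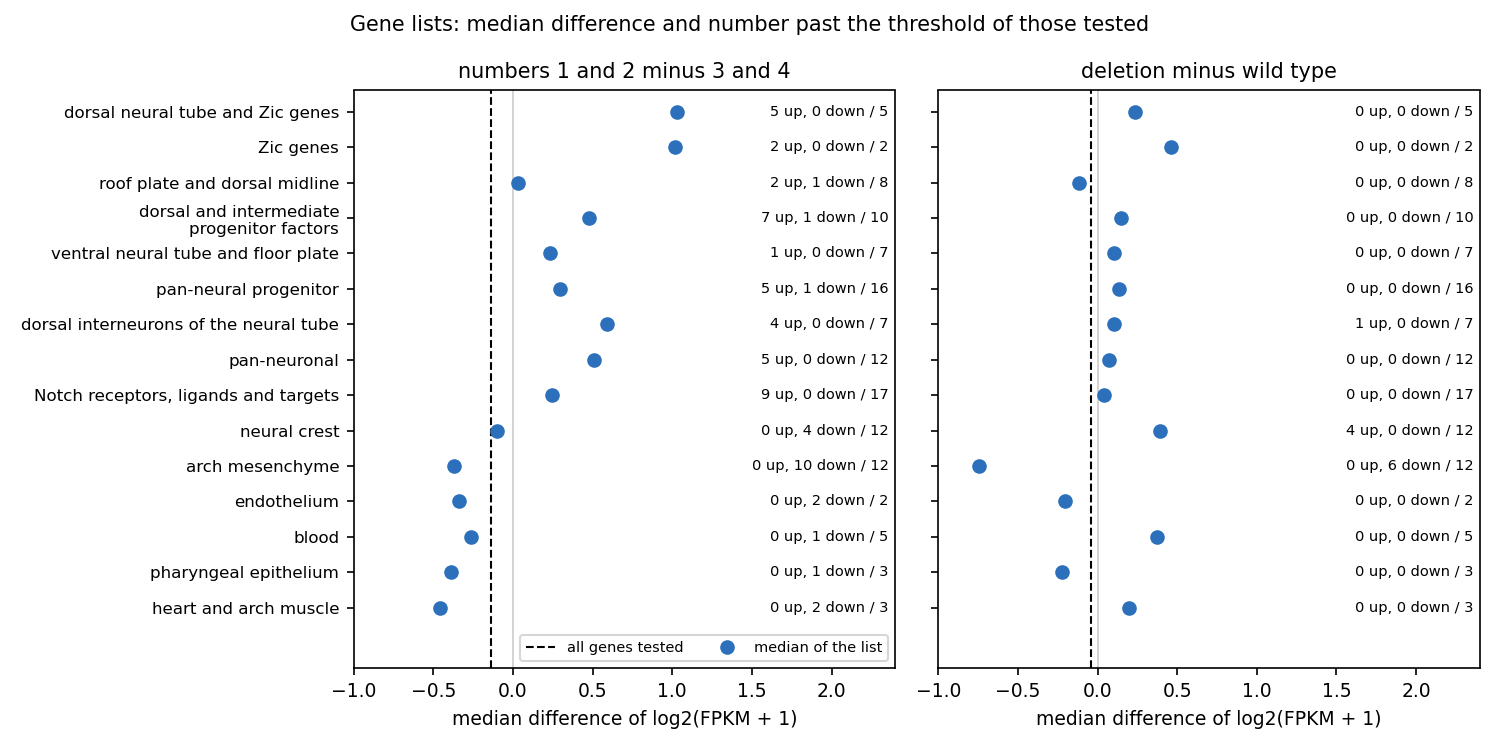
Median difference in log2(FPKM + 1) of each gene list by library number and by genotype, with counts of genes called higher, lower and tested, and a dashed line at the median of all genes. The 2 tested Zic genes (1.02) and the 5 tested of the 9 genes (1.03) lie farthest above that line by library number, and arch mesenchyme (-0.74) lies farthest below it by genotype.

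The genes most like the 5 tested genes were found by Pearson's correlation of log2(FPKM + 1) with their mean z-score over the 7 libraries, which both share and which fall into separate sets. They were Wscd1 (r = 0.985), Chst8 (0.984), Coro7 (0.977), Pou6f1 (0.977), Nrarp (0.976), Dip2b (0.975), Fzd10 (0.973), Nav2 (0.969), Hid1 (0.956) and Mgat4b (0.945). Of the 11034 other genes, 55 or 0.498% had an r of at least 0.9. Fzd10, a Wnt receptor, had 4.94, 5.30, 1.79 and 2.34 FPKM in wild type and 4.78, 3.71 and 3.46 FPKM in deletion. Nrarp had 19.6, 20.6, 11.2 and 9.47 FPKM in wild type and 19.2, 15.5 and 13.8 FPKM in deletion. Both were lowest in wild type 3 and 4 and intermediate in deletion 3 and 4.

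**Figure D4:**
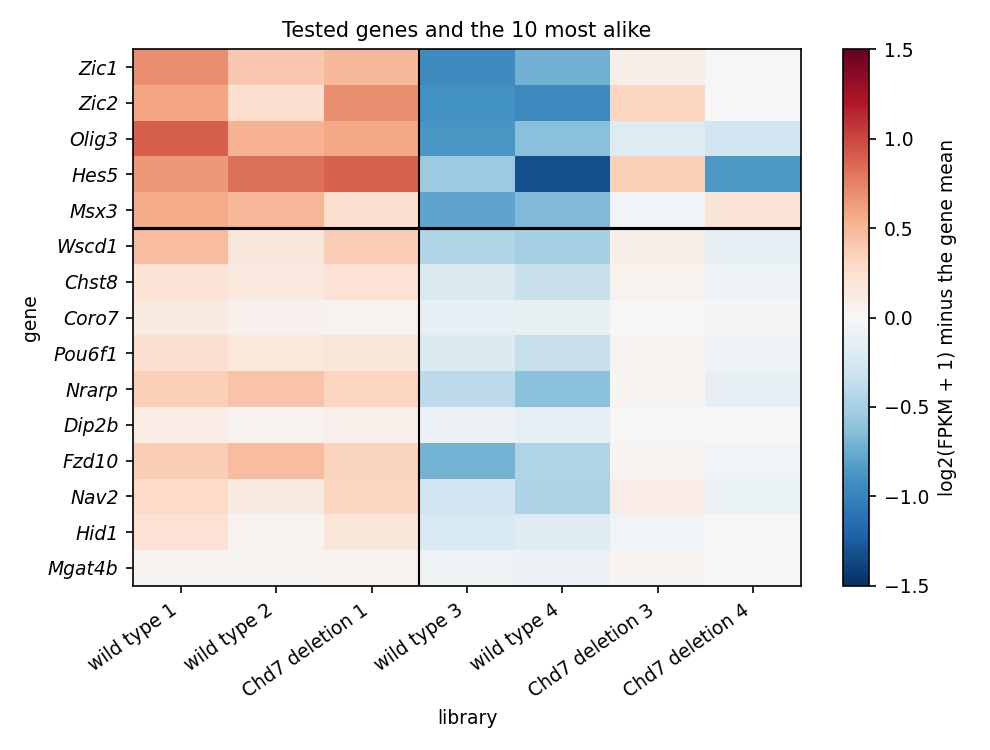
Level of the 5 tested genes and of the 10 most similar genes in each library, as log2(FPKM + 1) minus the mean of the gene, with libraries numbered 1 and 2 on the left and 3 and 4 on the right. Wild type 3 and 4 are the lowest columns for most of these genes.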

How the data were processed

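RNA-seq was measured in 7 libraries of sorted GFP-positive cells, 4 wild type and 3 Chd7 deletion. Per the labels, total RNA had an integrity number of at least 9.5, and ribosomal RNA was depleted before strand-specific, randomly primed libraries were made. Since the labels give neither litter, date, batch nor embryo number, every p-value reflects variation among these 7 libraries, part of which may be technical.

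The authors deposited FPKM values for 19169 rows. Per the submitters' processing notes, the tools were Partek, SAMtools, HISAT2, Trimmomatic 0.38 and bcl2fastq 2.18.0.12, with mm10 as the build. No source used here gives the annotation or the filters. A library with more ribosomal RNA has lower FPKM elsewhere.

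After 25 rows with dates for symbols were left out, the 11039 of 19144 genes averaging 1 FPKM or more were fitted as log2(FPKM + 1), by limma 3.58.1 under R 4.3.3 (trend, two-sided, Benjamini-Hochberg over all genes, threshold 0.05), so fold changes of low genes are understated. The script was tested on simulated data. Reads per gene were recovered from low values within 0.02 of a whole number, up to a whole multiple. Python 3.11.15 was used. Genes beyond the 9 were named by passing a test in their list (at most 4 a test, otherwise the 2 most abundant) or by likeness (10 genes). Pax3, Irx5, Neurog1, Sfrp1 and Notch1 were named after their values were seen, and some genes that the rule names are not reported here. The 9 genes, the lists and the split by number were chosen with earlier results of these data known. Same-numbered libraries of the genotypes deviated together (correlations 0.704, 0.399 and 0.775), so the numbers were taken to pair them, although unlike numbers of the same set also did (wild type 2 with deletion 1 0.592, wild type 3 with deletion 4 0.377, wild type 4 with deletion 3 0.25). A fit with the replicate block was an alternative. Other alternatives were the pseudocount, filter, median scaling, library weights, the set of numbers and leaving out each library.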

Additional observations from a re-analysis of the deposited data

Results flagged for a closer look

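Msx3 moved in opposite directions with the deletion in the different sets of numbers. Deletion 1 (2.77 FPKM) lay below wild type 1 (3.65 FPKM) and 2 (3.47 FPKM), while deletion 3 (2.07 FPKM) and 4 (2.64 FPKM) lay above wild type 3 (0.831 FPKM) and 4 (0.996 FPKM). The genotype difference in libraries 3 and 4 minus that in libraries 1 and 2 was 1.08 on the log2 scale (limma adjusted p = 0.111), which did not pass the threshold, and libraries 1 and 2 include 1 deletion library.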

How the results depend on the processing

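The count of tested genes called by genotype was 0 over all 7 libraries, 1 with the set of numbers in the model and 3 within libraries 3 and 4, and 0 whichever library was left out. With the replicate block, which pairs libraries by number, 0 were called (Zic2 0.76, limma adjusted p = 0.102; Hes5 0.53, adjusted p = 0.0789), while all genes called went from 98 to 366. The block changed no genotype call of the 5 genes, and it was not fitted for the other comparisons or the lists. The genotype difference of Olig3 reversed to -0.033 with weights per library, and it ranged from -0.24 to 0.35 on leaving out a library, below 0 when that was wild type 3, wild type 4 (-0.15) or deletion 1 (-0.23). That of Hes5 reversed to -0.32 with weights and ranged from -0.19 to 0.72, below 0 when wild type 4 or deletion 1 (-0.16) was left out. By library number the count was 5 of 5, 7 of 9 without the minimum level, and 3 of 9 without it in wild type alone, an alternative chosen after seeing the data, where Olig3 (adjusted p = 0.0530) and Hes5 (adjusted p = 0.0539) were not called by limma. It was 5 to 6 on leaving out a library, since Zic5 passes the minimum without wild type 3 or 4. The same after-the-fact removal of the minimum with the set of numbers in the model gave 0 of 9 by genotype. Of the alternatives for single tested genes, 69 of 80 by genotype, 62 of 65 by library number and 20 of 20 for the difference between sets kept direction and side of the threshold. The cause of these changes was not tested. Depth limits Lmx1a and Zic4 most, at 0 to 31 and 15 to 81 reads.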
